A study of Mus musculus with 2 samples.

Results

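The genes described here are 9 that write, erase or read DNA methylation, chosen by name from the 23284 gene symbols measured in FL hematopoietic cells of WT and ESAM-null mice. They are the DNA methyltransferases Dnmt1, Dnmt3a and Dnmt3b, the maintenance cofactor Uhrf1, the Tet enzymes Tet1, Tet2 and Tet3, and the methyl-DNA binding domain genes Mbd1 and Mbd3. The study asked which molecular changes accompany the failure of blood development in fetuses without ESAM, an adhesion molecule of endothelial cells and HSCs. RNA-seq was performed on LSK CD48- cells, an HSC-enriched fraction that lacks lineage markers and CD48 and carries Sca-1 and c-Kit, sorted from E14.5 FLs. The WT group was 1 library from fetuses with intact Esam, and the ESAM-null group was 1 library from homozygous conventional ESAM-KO fetuses. In these the gene is knocked out in all cells and not in HSCs alone. Strain, the number of fetuses or cells behind a library and the deleted exons are given neither in the labels nor in the paper used here. The sample labels also describe plating of the sorted cells in methylcellulose, and the values were taken here as those of sorted cells, as in the paper's text.

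Methyl groups on cytosines of CG dinucleotides are copied to the new strand after each replication by Dnmt1, which Uhrf1 brings to hemimethylated sites, whereas Dnmt3a and Dnmt3b place new marks. Tet enzymes oxidize the methyl group, which leads to its loss through base repair or replication. Proteins of the methyl-DNA binding domain family connect the mark to chromatin complexes. In blood, Dnmt3a and Tet2 are well known as regulators of HSC self-renewal that are often mutated in clonal hematopoiesis and leukemia.

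Values are FPKM (fragments per kilobase of transcript, scaled by the authors for library size, with the setting not given). They are per length and can be set side by side between genes. Read numbers were estimated from the steps of the lowest FPKM values. Summed over genes, on the scale of the authors' normalization, these came to about 9504250 reads in WT and about 11630600 in ESAM-null. Intervals given here are exact 95% intervals from these approximate reads and cover counting error only. With 1 library per genotype there is no replicate check, and no p-value can be given for any difference. Esam, the targeted gene, was 117.6 FPKM in WT against 12.1 FPKM in ESAM-null, 9.69-fold lower. The source of the remaining Esam signal was not tested. All 7 HSC markers listed were above 0 in both libraries, with summed levels of 576.8 FPKM in WT against 530.8 FPKM in ESAM-null. For 5 other lists (hepatocyte, macrophage, endothelial, megakaryocyte and B cell), summed levels were 14.9 to 86.4 FPKM in WT and 10.6 to 103.6 FPKM in ESAM-null. Reads in WT only were found for 4 of 7 macrophage genes (Emr1, C1qa, Cd5l and Vcam1). Fewer genes above 0 in ESAM-null were not particular to them. The counts in WT and ESAM-null were 6 and 3 for hepatocyte genes, 6 and 5 for endothelial and B cell genes, 5 and 4 for megakaryocyte genes, and 14305 and 13039 over all symbols. Macrophage genes did not all go one way: Csf1r was 2.17 and 3.59 FPKM, and C1qc was 3.38 and 5.07 FPKM. Erythroid markers summed to 474.7 and 182 FPKM, a sum carried by Hba-a2 (373.2 and 57.1 FPKM), which can share reads with a near-identical copy. The 7 erythroid genes without it summed to 101.5 and 125 FPKM, a sum carried in turn by Hbb-b1 at 78.8 and 114.5 FPKM. The paper reported Hbb-b1 as lower by qPCR in ESAM-null LSK CD48- cells. Alas2 was 8.08 and 0.282 FPKM. Of all 8 erythroid genes, 5 had a ratio below 1 and 3 above 1, with a median log2 ratio of -1.47. At least 2-fold lower in ESAM-null were 4 of the 8, and 1 was at least 2-fold higher, beside 12.8% and 7.42% of all genes. Granulocyte markers summed to 250 and 256 FPKM, a sum carried by Prtn3 (186.0 and 193.4 FPKM) and Mpo (63.9 and 62.8 FPKM). Elane and Ctsg were at 0 in both libraries, and Ngp was 0.222 and 0.102 FPKM. The part of other cells in the levels below was not tested. In bulk RNA, fewer cells of a type and less RNA per cell cannot be told apart.

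All 9 genes were expressed in both libraries. In WT, Mbd3 was highest at 194 FPKM, followed by Dnmt3b at 150.4, Uhrf1 at 71.5, Dnmt1 at 50.5, Dnmt3a at 43.6, Mbd1 at 22.4, Tet3 at 5.36, Tet1 at 5.21 and Tet2 at 3.70 FPKM. The readers and writers were therefore far above the erasers. In ESAM-null the order was the same apart from Dnmt1 and Dnmt3a, which were next to each other at 31.2 and 31.4 FPKM with overlapping counting intervals. Tet1 and Tet3 also had overlapping intervals in each library. Summed over the 3 methyltransferases, the level was 17.1 times that of the 3 Tet enzymes in WT and 18.8 times in ESAM-null.

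**Figure D1:**
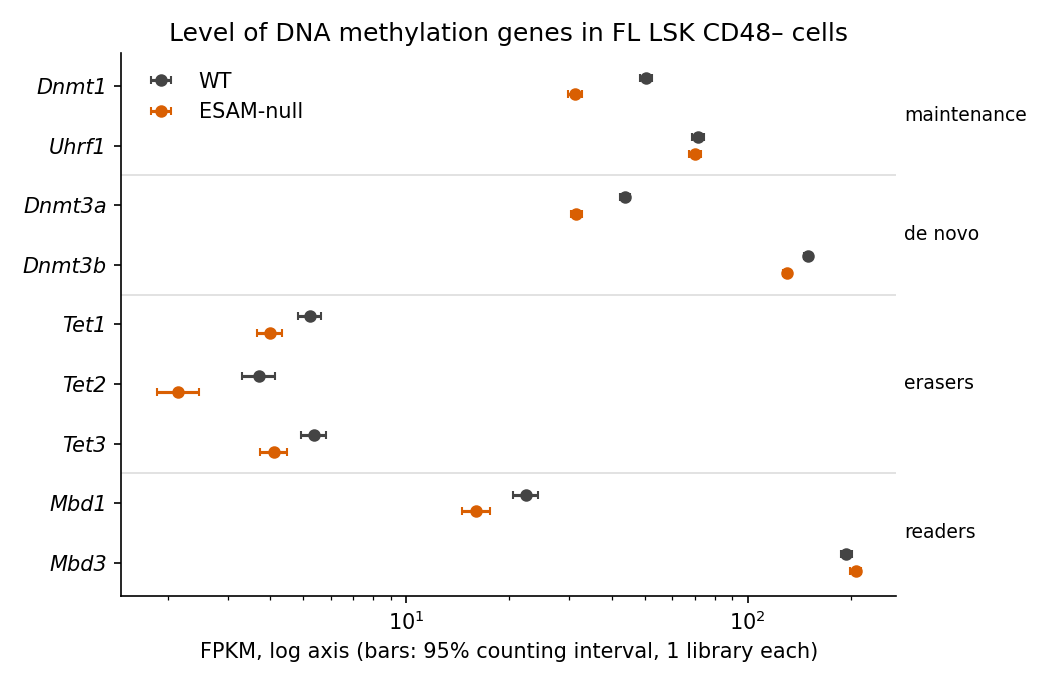
FPKM of the 9 genes in WT (grey) and ESAM-null (orange) on a log axis, 1 library each, with 95% counting intervals as bars. The Tet enzymes lie between 2.15 and 5.36 FPKM, and the writers and readers between 16 and 206.9 FPKM.

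None of the 9 genes was at least 2-fold lower or higher in ESAM-null. Over all 12066 genes at 1 FPKM or more in either library, 20.2% were past 2-fold, 12.8% as lower in ESAM-null and 7.42% as higher. This share depends on level. Among the 500 genes nearest in level to each member, it ran from 1.0% for Uhrf1 to 38.2% for Tet2. It was 1.8% for Dnmt1 and for Mbd3 and 6.8% for Mbd1. Within 2-fold, 8 of the 9 genes had lower FPKM in ESAM-null and 1, Mbd3, had higher FPKM, whereas 50% of all genes were lower. The median log2 ratio of the 9 genes was -0.39, beside 0.00 over all genes tested. Counting intervals lay below a ratio of 1 for 7 of the 9 genes, a share to be read beside 36.6% of all genes, or 34.1% of genes with at least 500 reads in both libraries together. Intervals above 1 were found for 1 of the 9 genes (Mbd3) and for 36.7% of all genes, or 42.9% of those with at least 500 reads.

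Sequences around transcription start are shown for Dnmt1 and Tet2, the members furthest from equal levels, and later for the germline gene Dazl. They show the CG dinucleotides on which these enzymes act. Windows of 300 bases, from 250 before to 50 after the start, came from RefSeq on GRCm38.p6, the same build as mm10, and every CG is in capitals. The Dnmt1 window is at chr9:20952574-20952873 and the Tet2 window at chr3:133544341-133544640, both on the minus strand and printed 5′ to 3′ along the gene.
Dnmt1: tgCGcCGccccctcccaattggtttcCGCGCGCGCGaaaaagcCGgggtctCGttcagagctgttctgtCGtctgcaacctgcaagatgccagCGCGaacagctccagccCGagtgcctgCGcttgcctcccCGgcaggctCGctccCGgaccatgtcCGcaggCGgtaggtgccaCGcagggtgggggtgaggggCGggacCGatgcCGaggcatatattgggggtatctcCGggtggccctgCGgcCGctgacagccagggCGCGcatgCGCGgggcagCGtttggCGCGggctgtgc
Tet2: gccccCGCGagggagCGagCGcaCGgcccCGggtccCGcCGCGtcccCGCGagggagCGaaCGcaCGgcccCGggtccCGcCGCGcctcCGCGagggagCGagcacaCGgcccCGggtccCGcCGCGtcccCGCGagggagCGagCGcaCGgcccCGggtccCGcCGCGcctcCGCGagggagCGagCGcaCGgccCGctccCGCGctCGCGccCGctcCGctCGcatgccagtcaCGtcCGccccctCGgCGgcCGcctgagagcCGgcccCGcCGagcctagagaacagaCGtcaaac
The Dnmt1 window holds 33 CG and the Tet2 window 57. Among 32851 such windows of the annotation, the median was 7 CG with quartiles of 3 and 20, and 99.8% held fewer than the Tet2 window. The 8 members other than Mbd1 had 13 windows, with 2 to 57 CG and a median of 22. Windows of 1 gene partly overlap. The other Dnmt1 starts lie upstream of the window shown and held 12 and 2 CG, so the Dnmt1 window with the most CG is the one shown. Which start was used in these cells was not tested. The letters TTTGGCGC were searched on both strands as a form of the E2F site. They were in the Dnmt1 window shown, after its start, in no other window of the 8 genes, and in 0.514% of all windows. TTTCCCGC, another form, was in none of theirs and in 1.07% of all windows. No methylation was measured in these cells here, so the windows are shown as sequence alone.

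Dnmt1, the maintenance methyltransferase, lies on chromosome 9 from 20907206 to 20959888 (mm10). It was 50.5 FPKM in WT against 31.2 FPKM in ESAM-null, on some 2430 and 1638 reads. The ESAM-null level was 1.62-fold lower, with a counting interval of 1.52 to 1.72-fold. Beside the 500 genes nearest in level, whose middle 50% ran from -0.21 to 0.33 in log2 ratio, the Dnmt1 log2 ratio of -0.69 was at percentile 3.0. This was the lowest percentile of the 9 genes, and such percentiles describe these libraries only.

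Uhrf1, which recognizes hemimethylated DNA and recruits Dnmt1, lies on chromosome 17 from 56303337 to 56323486. It was 71.5 FPKM in WT against 70.2 FPKM in ESAM-null, a ratio of 0.981 with an interval of 0.925 to 1.04. No difference was detectable at this depth in the deposited scaling. The partners in maintenance thus had unlike ratios. Dnmt1 was 0.705 of the Uhrf1 level in WT and 0.445 in ESAM-null. A quotient taken within a library is not altered by scaling between libraries, and this one was 1.59-fold lower in ESAM-null (counting interval 1.45 to 1.73).

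Genes of S phase, when Dnmt1 and Uhrf1 act, lay on both sides of equal levels. Of 15 such genes, none was at least 2-fold lower or higher, 9 had a ratio above 1 and 6 had a ratio below 1. The median log2 ratio was 0.14, or below 0 after rescaling each library to a common total, which moves every log2 ratio by -0.28. Mcm6, a subunit of the replicative helicase, was 236.8 FPKM in WT against 313.2 FPKM in ESAM-null. Slbp, which binds histone mRNA, was 154.4 and 192.8 FPKM. Pcna, the replication clamp that also holds Dnmt1 at the fork and is counted among the methylation partners below, was 269.6 and 335.2 FPKM. The log2 ratios of Mcm6, Slbp and Pcna were 0.40, 0.32 and 0.31. All genes with a mean of 100 FPKM or more had a median of 0.36, so these values are usual at that level.

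Dnmt3b, a de novo methyltransferase on chromosome 2 from 153649411 to 153687730, was the most abundant of the writers. It was 150.4 FPKM in WT against 129.9 FPKM in ESAM-null, 1.16-fold lower (1.11 to 1.20). The 500 genes nearest in level had a median log2 ratio of 0.26, and the Dnmt3b value of -0.21 was at percentile 10.8 among them. Dnmt3a, the other de novo enzyme, spans 112.9 kb on chromosome 12 from 3801559 to 3914443. It was 43.6 FPKM in WT against 31.4 FPKM in ESAM-null, 1.39-fold lower (1.32 to 1.46), at percentile 12.4.

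The balance among the writers differed between the libraries. Dnmt3b made up 61.5% of the summed methyltransferase FPKM in WT and 67.5% in ESAM-null. Dnmt1 was 20.6% and 16.2%, and Dnmt3a was 17.9% and 16.3%. The quotient of Dnmt3b to Dnmt3a was 3.45 in WT and 4.13 in ESAM-null, 1.20-fold higher in ESAM-null (1.13 to 1.28). Genes of like level and transcript length differed in the same direction. Their median log2 ratio was 0.11 for those nearest Dnmt3b and -0.14 for those nearest Dnmt3a. The part of level and length in this balance was not tested. Relative to Dnmt1, Dnmt3b was 2.98 in WT and 4.16 in ESAM-null. FPKM are per gene symbol and do not separate isoforms, of which RefSeq lists several for both de novo enzymes that differ in activity or start site.

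The Tet enzymes share low levels and long transcripts of 9.10 to 14.2 kb. Tet2, the family member most often mutated in blood cancers, lies on chromosome 3 from 133463677 to 133545136. It was 3.70 FPKM in WT against 2.15 FPKM in ESAM-null, with some 307 and 194 reads, 1.72-fold lower (1.44 to 2.08). That is the greatest fold among the 9 genes, and its interval includes 2-fold. At this low level ratios scattered widely, and 38.2% of the 500 nearest genes were past 2-fold in either direction, so that Tet2 was at percentile 29.4.

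Tet1, on chromosome 10 from 62804570 to 62887469, was 5.21 FPKM in WT against 3.99 FPKM in ESAM-null, 1.31-fold lower (1.17 to 1.46). Tet3, on chromosome 6 from 83362373 to 83457208, was 5.36 and 4.09 FPKM, also 1.31-fold lower (1.15 to 1.49). Both were near the middle of genes at their level, at percentiles 41.2 and 41.0. The quotient of Tet1 to Tet3 was 0.972 in WT and 0.975 in ESAM-null, whereas that of Tet1 to Tet2 was 1.41 in WT and 1.86 in ESAM-null (1.32-fold higher, 1.06 to 1.64). Tet2 accounted for 25.9% of the summed Tet FPKM in WT and 21% in ESAM-null. The sum was 14.3 FPKM in WT against 10.2 FPKM in ESAM-null, 1.39-fold lower, beside 1.27-fold for the summed methyltransferases.

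Of the readers, Mbd3 is a subunit of the NuRD complex that in mammals binds methylated DNA poorly, and Mbd1 binds methylated CG and recruits histone methylation. Mbd3 (chromosome 10, 80392539 to 80399531) was 194 FPKM in WT against 206.9 FPKM in ESAM-null, a ratio of 1.06 (1.01 to 1.12). The ratio was 0.933 after upper quartile scaling and 0.878 after rescaling to a common total, so its direction depends on scaling. Among genes of like level it was at percentile 22.0, and these genes had a median log2 ratio of 0.32. Mbd1 was 22.4 FPKM in WT against 16 FPKM in ESAM-null, 1.40-fold lower (1.23 to 1.59), at percentile 19.6. The quotient of Mbd3 to Mbd1 was 8.67 in WT and 12.9 in ESAM-null, 1.49-fold higher in ESAM-null (1.29 to 1.71).

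**Figure D2:**
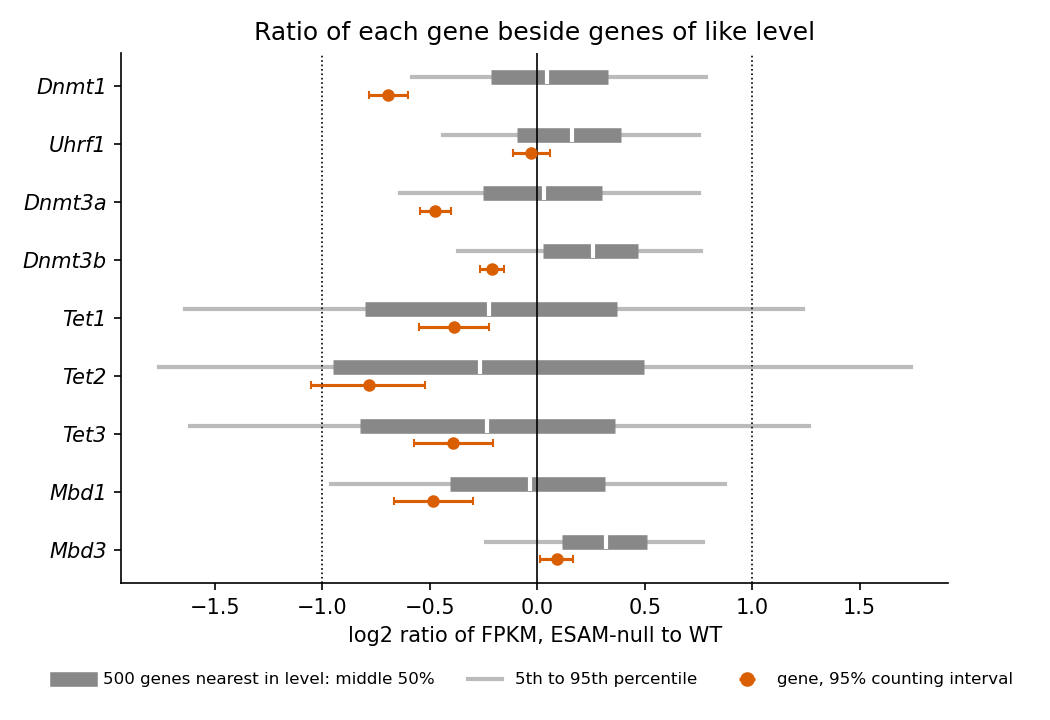
Log2 FPKM ratio (ESAM-null over WT) for each gene (orange, bars are 95% counting intervals) beside the 500 genes nearest in level (thick grey, middle 50%, with a white tick at the median, and thin grey, percentiles 5 to 95). Dotted lines mark 2-fold. Dnmt1 at -0.69 lies below the percentile 5 line of its neighbours at -0.58, and the Tet genes lie inside a much wider spread.

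Transcript length moved with the ratios in these libraries. Over genes of at least about 1 FPKM in mean level, the median log2 ratio was 0.46 for 985 genes with transcripts under 1 kb, 0.18 for those of 1 to 2 kb, -0.02 for 2 to 4 kb, -0.21 for 4 to 8 kb and -0.41 for 364 genes of 8 kb or more. Among the 9 genes, Mbd3, with a transcript of 1.61 kb, had the highest ratio, and the 4 over 8 kb (Dnmt3a and the Tet genes) had log2 ratios of -0.78 to -0.39. Mbd1 at 2.84 kb and Dnmt1 at 5.37 kb were lower than most genes of their length, at -0.48 and -0.69. The part of transcript length in the ratios of single members, or in the quotients between members, was not tested.

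When each member was set beside the 200 genes nearest in both level and length, a comparison added after the data were seen, Tet1 and Tet3 were at percentiles 52.5 and 50.5 and Tet2 at 32.5. The log2 ratios of Tet1 and Tet3, both -0.39, were close to the medians of these other long, low genes, both -0.40. Tet2 at -0.78 (counting interval -1.05 to -0.52) was below its median of -0.47. Dnmt1 was again lowest, at percentile 6.0, with a log2 ratio of -0.69 beside a median of -0.10. Dnmt3b was at percentile 16, Dnmt3a at 18, Mbd1 at 20.0, Mbd3 at 24.0 and Uhrf1 at 42.5. Of the 9 genes, 9 were below the median of genes of like level, and 7 were below that of genes of like level and length.

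**Figure D3:**
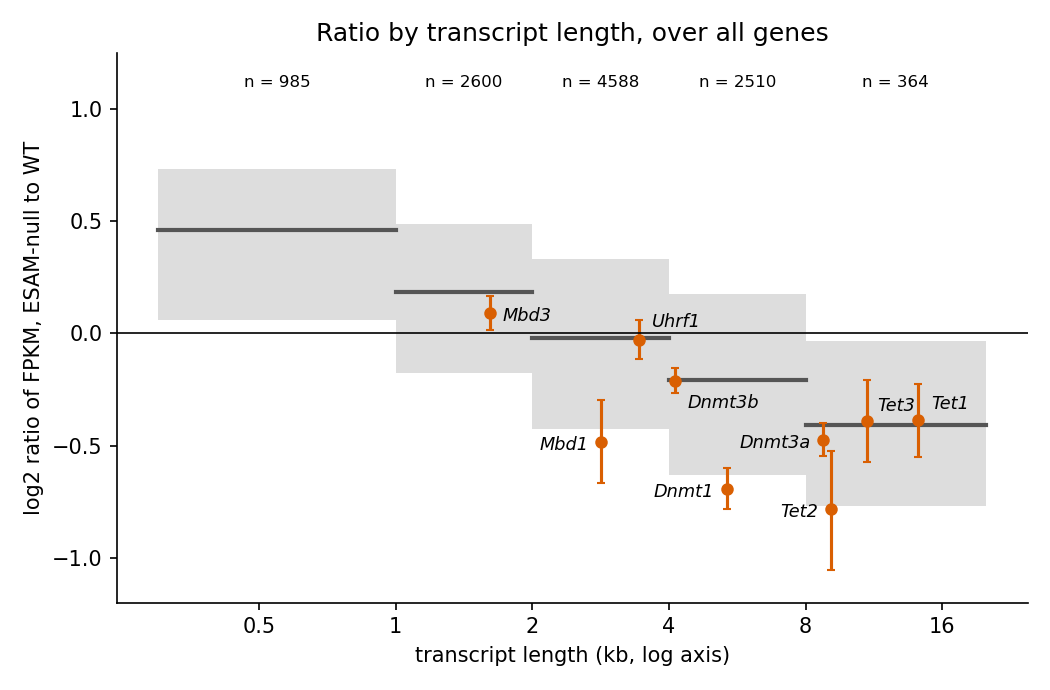
Log2 FPKM ratio (ESAM-null over WT) against transcript length (log axis) for the 9 genes (orange, 95% counting intervals) over all genes in 5 ranges of length (dark line, median, and grey, middle 50%, with the number of genes above). Dnmt1 and Mbd1 lie below the grey bands, Tet2 lies at the lower edge of its band, and Tet1 and Tet3 lie on the median line of genes of 8 kb or more.

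Around these genes, 98 symbols in 7 lists of partners, cofactors and related genes were examined. Of the 76 that reached 1 FPKM in either library, 6 were past 2-fold as lower (7.89%) and 1 as higher (1.32%). The shares of all genes were 12.8% and 7.42%, but these depend on level. At a mean of 1 to 3 FPKM, 29.96% of genes were past 2-fold as lower and 19.7% as higher. At 100 FPKM or more, these shares were 1.73% and 1.58%. Whether the lists differ in this from genes of like level was not tested. The median log2 ratio of the 76 genes was 0.07. Upper quartile scaling moves every log2 ratio by -0.19 and rescaling to a common total by -0.28, so that members given below with ratios slightly above 1 turn to slightly below 1 there.

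Among 13 partners of maintenance and de novo methylation, 11 were measured at 1 FPKM or more. No gene was past 2-fold downward and 1 was past it upward; the median log2 ratio was 0.19. Trdmt1, a Dnmt family member that methylates tRNA and not DNA, was 1.22 FPKM in WT against 4.29 FPKM in ESAM-null (ratio 3.51, 2.46 to 5.05, some 41 and 156 reads). Cdca7, which recruits the remodeler Hells to nucleosomes, was 168 and 191.9 FPKM. Hells itself, needed for methylation of repeats, was 27.9 and 41.1 FPKM, and Uhrf2, the Uhrf1 paralog, was 42.2 and 47.2 FPKM. Of the 11 measured partners, 7 had a ratio above 1 and 4 below 1. Below 1 were the chromatin remodeler gene Atrx (36.3 and 26.2 FPKM, ratio 0.721, 0.685 to 0.758), the corepressor gene Trim28 (ratio 0.837, 0.799 to 0.876), Usp7, a deubiquitinase that binds Dnmt1 and Uhrf1 (ratio 0.884, 0.801 to 0.973), and Daxx, with an interval that includes 1. Dnmt3l, the cofactor of germ cells, and Dppa3 were listed at 0 in both libraries.

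Of 21 genes of demethylation and base repair, 19 were measured. In ESAM-null, 2 of these were past 2-fold as lower and none as higher, and their median log2 ratio was -0.24. D2hgdh, a mitochondrial enzyme that removes hydroxyglutarate, an inhibitor of Tet enzymes, was 17.4 FPKM in WT against 8.27 FPKM in ESAM-null, 2.11-fold lower (1.81 to 2.46). Smug1, a glycosylase that excises uracil and hydroxymethyluracil, was 6.70 and 3.32 FPKM, 2.02-fold lower (1.59 to 2.54). The number past 2-fold as lower depended on the processing: it was 1 with 0.1 FPKM added to every value, 0 with 1 FPKM added, and 4 when libraries were scaled by the upper quartile or to a common total. Tdg, the glycosylase that removes bases oxidized by Tet, was 13.4 and 8.63 FPKM, 1.56-fold lower (1.33 to 1.83). Ogt, a glycosyltransferase that binds Tet proteins, was 49.4 and 32.4 FPKM. Other members lay on both sides. Idh2, which makes the Tet cosubstrate alpha-ketoglutarate in mitochondria, was 330.0 and 279.9 FPKM, its cytosolic counterpart Idh1 was 16.3 and 25.4 FPKM, and Cxxc5, a zinc finger protein that binds unmethylated CG, was 73.5 and 77.2 FPKM.

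Among 7 other readers and their partners, 6 were measured, 1 of them past 2-fold as lower, and the median log2 ratio was -0.39. Zbtb38, a zinc finger protein that binds methylated CG, was 8.25 FPKM in WT against 3.29 FPKM in ESAM-null, 2.51-fold lower (1.97 to 3.19). Its relative Zbtb33 (Kaiso) was 1.45 and 2.28 FPKM, in the opposite direction. Atf7ip and Setdb1, which carry the histone methylation recruited by Mbd1, had 15.2 and 13.5 FPKM in WT against 11.3 and 10.6 FPKM without ESAM. With Mbd1, these 3 genes were each lower in ESAM-null, by less than 1.5-fold.

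The NuRD complex, in which Mbd3 sits, had 12 measured subunits, 1 of them past 2-fold as lower, and their median log2 ratio was 0.07. The helicase gene Chd3 was 12.1 FPKM in WT against 4.43 FPKM in ESAM-null, 2.73-fold lower (2.40 to 3.12), whereas its paralog Chd4 was 34.3 and 32.2 FPKM. The other measured subunits were within 2-fold. Rbbp7, a histone binding subunit, was 263.6 and 341.2 FPKM (ratio 1.29, with an interval above 1), Cdk2ap1 was 297.7 and 281.9 FPKM, and the deacetylase gene Hdac1 was 169.4 and 187 FPKM.

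Of 15 genes that supply and recycle the methyl donor S-adenosylmethionine, 12 were measured, 2 of them past 2-fold as lower and none as higher. Their median log2 ratio was 0.17. Mat2a, which makes the donor, was 141.9 FPKM in WT against 126.3 FPKM in ESAM-null, and Shmt2, a mitochondrial enzyme of folate metabolism, was 81.2 and 95.3 FPKM. Both were within 2-fold. Ahcyl2, a relative of the hydrolase Ahcy, was 5.56 and 1.01 FPKM, 5.48-fold lower (4.05 to 7.57).

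**Figure D4:**
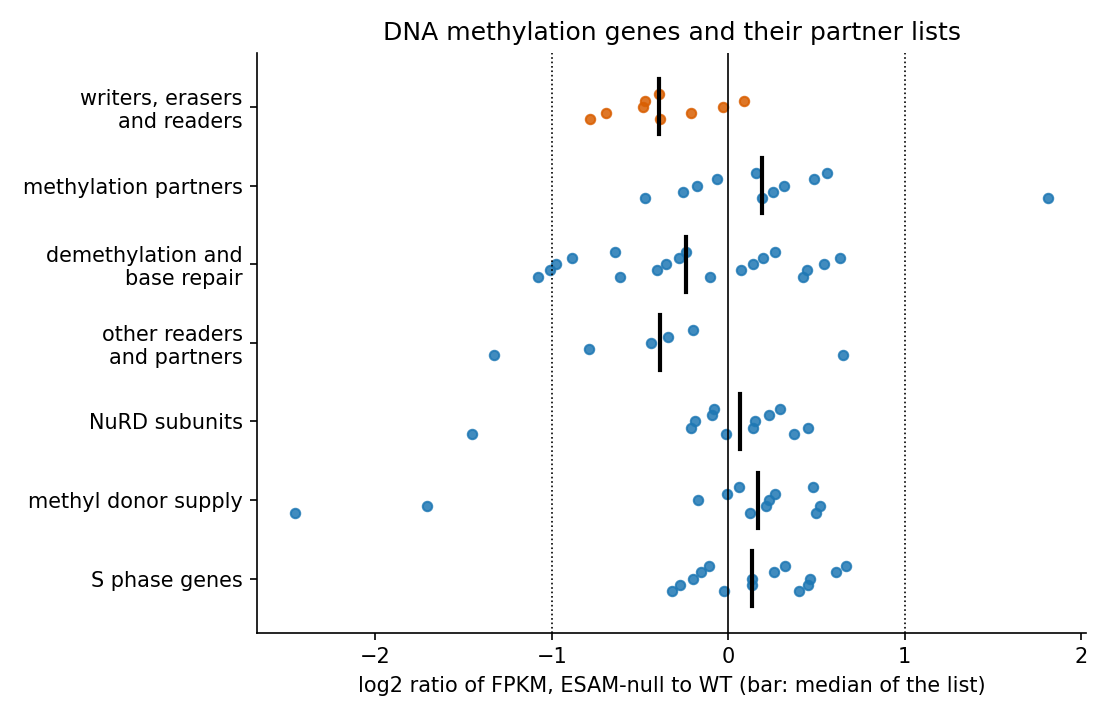
Log2 FPKM ratio (ESAM-null over WT) for the 9 writers, erasers and readers (orange) and for measured genes of 6 partner lists (blue, 1 point a gene); black bars are list medians and dotted lines mark 2-fold. The median of the 9 genes is -0.39, and the lists run from -0.39 (other readers and partners) to 0.19 (methylation partners).

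Germline genes that somatic cells keep silent by promoter methylation were taken as a list on which the mark is known to act. Of 15 such genes, 12 were listed at 0 in both libraries. Dazl, a germ cell RNA-binding protein gene and a classic example, was among them. Its window at chr17:50293571-50293870 (GRCm38.p6, minus strand) is shown with CG in capitals, as for Dnmt1 and Tet2 above.
Dazl: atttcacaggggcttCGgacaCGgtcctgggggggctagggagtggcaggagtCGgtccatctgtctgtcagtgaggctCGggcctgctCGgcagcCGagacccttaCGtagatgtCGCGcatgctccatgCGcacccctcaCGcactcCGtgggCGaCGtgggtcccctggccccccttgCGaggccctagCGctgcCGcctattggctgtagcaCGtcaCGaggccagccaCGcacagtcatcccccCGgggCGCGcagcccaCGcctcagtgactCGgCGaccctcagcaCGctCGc
It holds 28 CG, and the windows of the 15 genes held 3 to 38 with a median of 22. Sycp3 (0.928 FPKM, some 8 reads) and Brdt (0.118 FPKM, some 3 reads) were detected in WT and were at 0 in the ESAM-null table. None of the 15 was above 0 in ESAM-null alone. Over all 23284 symbols, 14305 were above 0 in WT and 13039 in ESAM-null, so values of 0 were common and more frequent in ESAM-null. Whether the germline counts reflect promoter methylation was not tested. Ddx4, the germ cell helicase gene, stood apart from the list at 22.8 FPKM in WT against 19.7 FPKM in ESAM-null (some 570 and 537 reads). A value of 0 does not show that a transcript is absent, and no upper limit on the level was computed for these genes.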

How the data were processed

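RNA-seq of E14.5 FL LSK CD48- cells was available as 1 library per genotype. The authors deposited FPKM per gene symbol for each library, made from 75 bp single-end reads on mm10. Per the labels, reads were aligned with TopHat2 2.0.13 on Bowtie2 2.2.3, and SAMtools 0.1.19 was used before Cuffnorm 2.2.1. Annotation and normalization setting: not given in the sources used here.

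From these values each gene's FPKM ratio (ESAM-null over WT) was taken, with a minimum of 1 FPKM in 1 library and a threshold of 2-fold. Approximate reads came from FPKM, the median length of RefSeq-linked GENCODE M21 transcripts (found for 98.0% of symbols), an assumed fragment length (mean 200 bp, SD 80 bp), and the value of 1 read. Of low values of genes with 1 transcript, 67.6% (WT) and 71.7% (ESAM-null) were whole reads to within 0.05, so read numbers are approximate. Intervals are exact (Clopper-Pearson for ratios, Poisson for levels, conditional for quotients) at 95%. Nearness in level used the mean of log2(FPKM + 0.1). The steps were tested on simulated data.

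The genes and lists were chosen with earlier results of these data known. The naming rule took all 9 genes, the 2 most abundant genes of each list and up to 4 past 2-fold. A gene counted in these lists is not reported here by name or value. Other genes, among them Hells, Uhrf2, Usp7, Trim28, Atrx, Daxx, Tdg, Ogt, Idh1, Zbtb33, Chd4, Hdac1, Dazl, Brdt, Dnmt3l and Dppa3, were named after their values were seen. Sequences are from RefSeq, and none is given for Mbd1. Alternatives were 4 scalings, pseudocounts of 0.1 and 1, thresholds of 1.5 and 3-fold, filters and leaving out each gene. Other genes of the methyl-DNA binding domain family were not all analysed here. Software was scipy 1.17.1, numpy 2.4.6, matplotlib 3.10.9 and pandas 2.3.3 under Python 3.11.15.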

Additional observations from a re-analysis of the deposited data

How the results depend on the processing

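Of the alternatives run, scaling moved the median log2 ratio most. The median log2 ratio of the 9 genes, -0.39 as deposited, was -0.58 after upper quartile scaling and -0.67 after rescaling to a total of 1000000, and it was -0.41 after median or trimmed mean scaling. Leaving out each gene in turn gave -0.43 to -0.39. With that rescaling, 1 of the 9 genes (Tet2, ratio 0.480) was at least 2-fold lower, and at a threshold of 1.5-fold 2 were (Dnmt1 and Tet2). Intervals below 1 were found for 9 genes, in place of 7, under upper quartile scaling and under rescaling. These scalings lower the log2 ratios of all genes alike, by 0.19 and 0.28, and the median over all genes with them. The share of all genes with intervals below 1 rises too and was not computed there, so the 9 are not a stronger result than the 7. Of 54 values of member ratios under scalings and pseudocounts, 17 lay outside the counting interval. In the partner lists, 11 genes were lower and 5 higher at 1.5-fold, 2 were lower at 3-fold, 11 were lower with no minimum, and 0 were higher with at least 5 FPKM in 1 library. Shares of all genes at these other thresholds and filters were not computed, so the counts describe the lists alone. No paired analysis was possible because each genotype had 1 library. Depth limits Tet2 most, which rests on the fewest reads of the 9 genes, followed by Mbd1 and Tet3.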
